A study of Mus musculus with 19 samples.

Results

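Perigonadal fat of mice eating a high-fat diet (HFD fed, 4 libraries: 21, 22, 25 and 27) was compared with the same depot of mice from the Ensure model after 24 hours without food (Ensure fasted, 5 libraries: 2, 5, 7, 8 and 17). These are 9 of the 19 RNA sequencing libraries of the series, and they were taken by their labelled diet and feeding state. The tissue was whole and the mice were C57BL/6 with no genetic change named. No age is given in the labels used here. HFD is labelled as a 60% diet and its mice were sampled at peak weight while eating. Ensure is a liquid food for human nutrition, and the fasted mice of that model lost access to food after peak weight. Diet and feeding state therefore differ together between these groups, and neither can be told apart from the other. Ensure fed mice (6 libraries, at peak weight) are set beside both groups where a level needs a fed reference, and HFD fasted mice (4 libraries) entered the fit only. Whether the libraries are separate animals is not stated in the labels, and p-values cover only the variation among the libraries, which may be technical.

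Fat cells make fatty acids from glucose when food supplies carbohydrate. ATP citrate lyase gives cytosolic acetyl-CoA, acetyl-CoA carboxylase gives malonyl-CoA, and fatty acid synthase builds palmitate, all under insulin through the transcription factors SREBP-1c and ChREBP. Both a fat-rich diet and fasting are known to lower these genes in mouse fat. Fasting also lowers insulin, raises circulating glucocorticoid, and moves fat cells toward release of fatty acids and sparing of glucose. The question was where fat of HFD fed mice already had the levels of fasted fat and where it did not.

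Levels are CPM, each gene’s share of a library’s counts after scaling by the TMM method, and the values of a group are listed in the order of its library numbers above. Depth was 19.98 to 22.55 M counts in genes in HFD fed and 12.82 to 20.55 M in Ensure fasted. Adipocyte markers were present in every library, with the 16 of them summing to 43220 to 67269 CPM in HFD fed and 26216 to 66611 CPM in Ensure fasted. A pair of Ensure fasted libraries stood apart. Library 5 held 11408 CPM of 12 epididymis markers and 10699 CPM of 11 smooth muscle markers, and library 2 held 634 CPM of the epididymis markers and 1172 CPM of 10 sperm cell markers. In the HFD fed libraries these lists summed to 12.6 to 34.2, 933 to 1027 and 52.3 to 115 CPM. HFD fed 21 had 329 CPM of 10 reproductive tract epithelium markers, against 7.26 to 34.5 CPM in the other HFD fed libraries. Some results below are therefore also given without 5 libraries rich in tract genes (Ensure fasted 2 and 5, Ensure fed 10 and 12, HFD fasted 24). In bulk tissue, fewer cells of a type and less RNA per cell cannot be told apart.

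**Figure D1:**
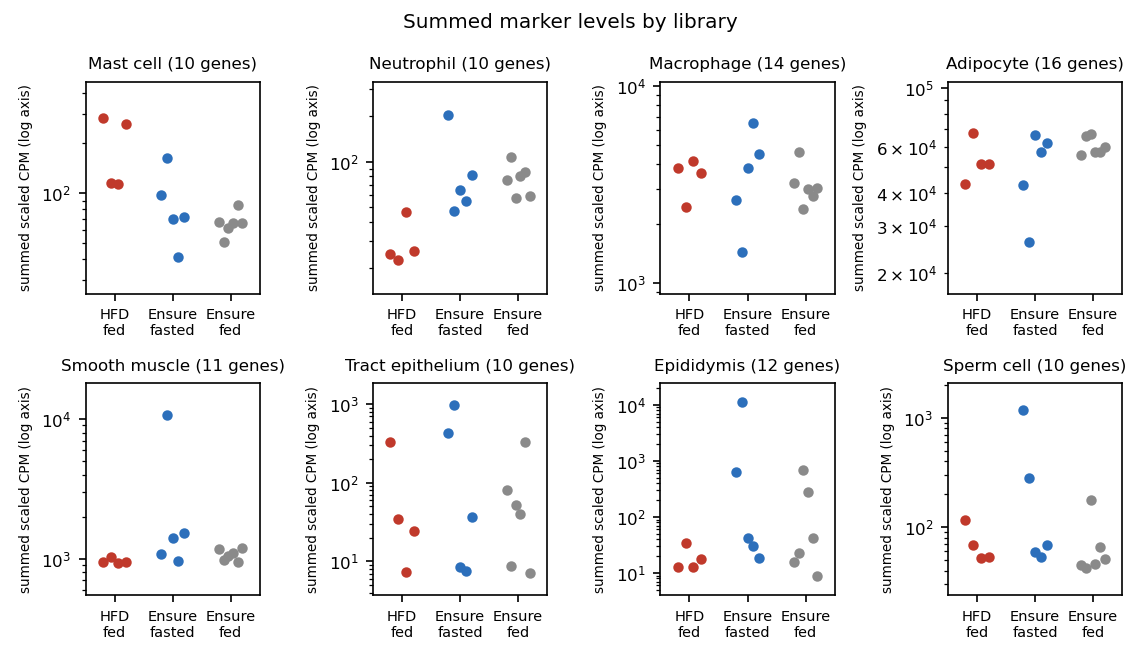
Summed scaled CPM of marker genes (log axis) for 8 cell types or tissues; each point is a library of HFD fed, Ensure fasted or Ensure fed. The Ensure fasted library at 11408 CPM of epididymis markers is also the one at 10699 CPM of smooth muscle markers, and mast cell sums were 114 to 284 CPM in HFD fed against 41.2 to 162 CPM in Ensure fasted.

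Of 16015 genes tested, 494 (3.08%) passed an adjusted p of 0.05 (edgeR quasi-likelihood test, Benjamini-Hochberg) between HFD fed and Ensure fasted: 260 were higher (1.62%) and 234 lower (1.46%) in HFD fed. The groups did not overlap for 736 higher (4.6%) and 513 lower genes (3.2%), and the 95% interval lay within 2-fold either way for 10758 genes (67.2%). The median log2 fold change of all genes was -0.02. Counts of list members below are to be read beside these shares of all genes. A list with few or 0 calls is not set apart by that count. For comparison, 682 genes (4.26%) differed between HFD fed and Ensure fed, 347 higher (2.17%) and 335 lower (2.09%), and 3255 (20.3%) differed between Ensure fasted and Ensure fed, 1690 higher (10.6%) and 1565 lower (9.77%). These 3 comparisons share libraries, so their values are given side by side only. All HFD fed libraries ran in sequencing lane 7, and the Ensure fasted libraries in lanes 5 and 6, so lane and group cannot be told apart within these 9 libraries. With lane as a term, estimated through the Ensure fed libraries in all 3 lanes, edgeR called 0 genes (478 at an unadjusted p under 0.05) and DESeq2 called 3 lower. Of the Ensure fed libraries, 1 ran in lane 5, 4 in lane 6 and 1 in lane 7. The term for lane 7 thus rests on Ensure fed 18 alone, so the fits with lane cannot tell lane from group either. A fit of the 9 libraries alone called 7 higher and 12 lower. Every call of HFD fed against Ensure fasted named below is one of the fit over 19 libraries, and every one ended with lane as a term. HFD fed against Ensure fed has the same limit, as most Ensure fed libraries ran in lanes 5 and 6. With lane as a term, edgeR called 0 higher and 2 lower in that comparison, and DESeq2 called 14 higher and 26 lower. Calls of HFD fed against Ensure fed below are from the fit without lane.

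Of 16 genes of de novo fatty acid synthesis, 0 were called higher and 1 lower in HFD fed than in Ensure fasted. Of all genes, 1.62% were called higher and 1.46% lower. The interval lay within 2-fold for 12 (75%, against 67.2% of all genes), and the median log2 fold change was -0.04. The same 16 genes had a median of -1.09 in HFD fed against Ensure fed, with 8 called lower (50%, against 2.09% of all genes). In Ensure fasted against Ensure fed their median was -0.78, also with 8 called lower, but there 9.77% of all genes were called lower.

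Fasn, the fatty acid synthase, had 2221, 2466, 4199 and 1724 CPM in HFD fed, against 1621, 1248, 3783, 3642 and 3864 CPM in Ensure fasted. The groups overlapped throughout, and Ensure fed libraries were at 7009.5 to 11293 CPM, above both. The difference of HFD fed from Ensure fasted was not called (log2 fold change -0.09 ± 0.34 SE, 95% interval -0.82 to 0.63, adjusted p = 0.919). Both were lower than Ensure fed (log2 fold change -1.79 ± 0.35 SE, adjusted p = 0.00922 for HFD fed and log2 fold change -1.70 ± 0.32 SE, adjusted p = 0.00180 for Ensure fasted). The lane limit given above applies to the difference of HFD fed from Ensure fed. Acly, ATP citrate lyase, had 301, 260.4, 454 and 252 CPM in HFD fed, against 213, 361, 318, 334 and 321 CPM in Ensure fasted. Its interval was narrower and lay within 2-fold (log2 fold change 0.03 ± 0.21 SE, 95% interval -0.40 to 0.47, adjusted p = 0.952), with Ensure fed at 919.8 to 1534 CPM. Acss2, which makes acetyl-CoA from acetate, had 109.8, 94.5, 217 and 88.2 CPM in HFD fed, against 67.7, 48.7, 160.4, 168 and 132 CPM in Ensure fasted. For Acss2, the log2 fold change was 0.14 ± 0.32 SE (95% interval -0.53 to 0.81, adjusted p = 0.854). HFD fed 25 was the highest of the 9 libraries for Acss2, and the same library led its group for Fasn, Acly and Me1.

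Me1, the malic enzyme that supplies NADPH, had 236, 204, 406 and 219 CPM in HFD fed, against 147, 81.0, 364, 343 and 295 CPM in Ensure fasted. For Me1, the log2 fold change was 0.11 ± 0.32 SE (95% interval -0.56 to 0.79, adjusted p = 0.888). Slc25a1, the mitochondrial citrate carrier, had 219, 199, 365 and 199 CPM in HFD fed, against 240.1, 141, 398, 353 and 365 CPM in Ensure fasted. For Slc25a1, the log2 fold change was -0.29 ± 0.24 SE (95% interval -0.79 to 0.22, adjusted p = 0.526). In both genes the HFD fed values lay inside the range of the Ensure fasted values but for the 406 CPM of Me1 in HFD fed 25, and all 9 values were below the lowest Ensure fed library (552 CPM for Me1 and 525 CPM for Slc25a1). Thrsp, the lipogenic protein Spot 14, averaged 474 ± 191 CPM in HFD fed and 477 ± 239 CPM in Ensure fasted (SD, n = 4 and 5), with Ensure fed at 1137 ± 290.1 CPM (SD, n = 6). Its fold change between HFD fed and Ensure fasted was close to 0 but with a wide interval (log2 fold change -0.01 ± 0.35 SE, 95% interval -0.75 to 0.73, adjusted p = 0.993).

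In Ensure fasted 2 and 5, which held the tract genes and the lowest adipocyte marker sums of the group (42840 and 26216 CPM), Fasn, Acss2, Me1 and Thrsp were the lowest of the Ensure fasted libraries. Without the 5 tract-rich libraries, the median of the 16 genes was -0.31 and 3 were called lower. Fasn was then not called (log2 fold change -0.50, adjusted p = 0.494), while Acaca was lower (log2 fold change -1.23, adjusted p = 0.0220). The part of the tract tissue in the likeness was not tested beyond this.

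**Figure D2:**
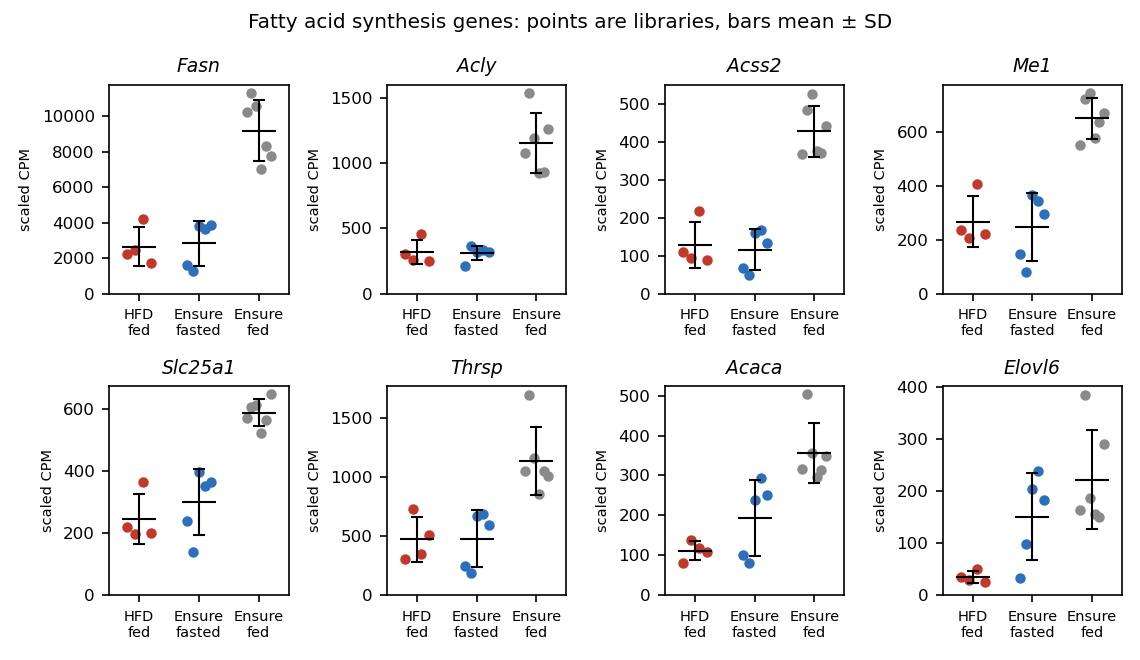
Scaled CPM of 8 fatty acid synthesis genes on linear axes; points are libraries and bars the mean ± SD of HFD fed (n = 4), Ensure fasted (n = 5) and Ensure fed (n = 6). HFD fed and Ensure fasted overlap below Ensure fed for Fasn, Acly, Acss2, Me1 and Slc25a1, while Elovl6 is lowest in HFD fed, at 24.2 to 50.5 CPM.

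Acaca, the cytosolic acetyl-CoA carboxylase, had 80.7, 137, 119 and 107 CPM in HFD fed, against 99.9, 81.5, 239.5, 293 and 252 CPM in Ensure fasted. The HFD fed values lay around those of Ensure fasted 2 and 5 and below the other 3 Ensure fasted libraries (log2 fold change -0.80 ± 0.35 SE, 95% interval -1.53 to -0.06, adjusted p = 0.216). Acacb, the carboxylase at the mitochondrion whose product restrains fatty acid oxidation, had 65.9, 167, 71.1 and 126 CPM in HFD fed, against 266, 197, 362, 297 and 289 CPM in Ensure fasted. Its groups did not overlap and it was lower in HFD fed (log2 fold change -1.39 ± 0.35 SE, adjusted p = 0.0418); Ensure fed was at 139 to 215 CPM. The call ended when any 1 of 10 libraries was left out (HFD fed 21, 25 or 27, HFD fasted 23 or 26, Ensure fed 12 or 18, Ensure fasted 2, 7 or 17; highest adjusted p = 0.155).

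Of 19 desaturases and elongases, 0 were called higher and 2 lower in HFD fed, against 1.62% and 1.46% of all genes, with a median of -0.15. The interval lay within 2-fold for 9 (47.4%, against 67.2% of all genes). Elovl6, which lengthens palmitate to stearate, had 35.5, 28.2, 50.5 and 24.2 CPM in HFD fed, against 32.1, 97.6, 204, 239 and 183 CPM in Ensure fasted. Ensure fasted 2 lay within the HFD fed range and the other 4 Ensure fasted libraries lay above it (log2 fold change -2.13 ± 0.47 SE, 95% interval -3.11 to -1.14, adjusted p = 0.0228), and Ensure fed was at 150.5 to 385 CPM. The call ended without HFD fed 21, 22 or 27 (highest adjusted p = 0.0767), and the difference was as large without the 5 tract-rich libraries (log2 fold change -2.59, adjusted p = 0.00596). Hacd1, a dehydratase of the elongation cycle, was at 6.09 to 9.29 CPM in HFD fed, against 9.66 to 12.1 CPM in Ensure fasted and was also lower (log2 fold change -0.52 ± 0.13 SE, adjusted p = 0.0338). Its call ended without HFD fed 21 or 27 or Ensure fasted 17 (highest adjusted p = 0.115). Scd1, the main desaturase of fat, averaged 37563 ± 13325 CPM in HFD fed and 35475 ± 12980 CPM in Ensure fasted (SD, n = 4 and 5). For Scd1, the log2 fold change was 0.08 ± 0.33 SE (95% interval -0.62 to 0.79, adjusted p = 0.928), and it was not called. Scd2, a second desaturase, averaged 719 ± 469 CPM in HFD fed and 411 ± 220.4 CPM in Ensure fasted (SD, n = 4 and 5). For Scd2, the log2 fold change was 0.81 ± 0.35 SE (95% interval 0.06 to 1.55, adjusted p = 0.218). Scd2 was at 802 CPM in Ensure fasted 5 and at 280 to 355 CPM in the other Ensure fasted libraries, against 1670.5 to 2211 CPM in Ensure fed.

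Of 17 lipogenic regulators, 0 were called in either direction, where 3.08% of all genes were called, and the interval lay within 2-fold for 16 (94.1%, against 67.2% of all genes). Srebf1, which encodes the SREBP-1 factors, was at 299 to 371 CPM in HFD fed, against 268 to 328 CPM in Ensure fasted. For Srebf1, the log2 fold change was 0.19 ± 0.14 SE (95% interval -0.11 to 0.49, adjusted p = 0.479). Mlxipl, the gene of ChREBP, was at 68.4 to 88.2 CPM in HFD fed, against 43.3 to 89.2 CPM in Ensure fasted. For Mlxipl, the log2 fold change was 0.18 ± 0.16 SE (95% interval -0.15 to 0.51, adjusted p = 0.539). Insig1, which retains SREBPs in the endoplasmic reticulum and is itself an SREBP target, was at 125 to 349 CPM in HFD fed, against 73.8 to 161 CPM in Ensure fasted. For Insig1, the log2 fold change was 0.80 ± 0.26 SE (95% interval 0.26 to 1.35, adjusted p = 0.0978), and it was not called.

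**Figure D3:**
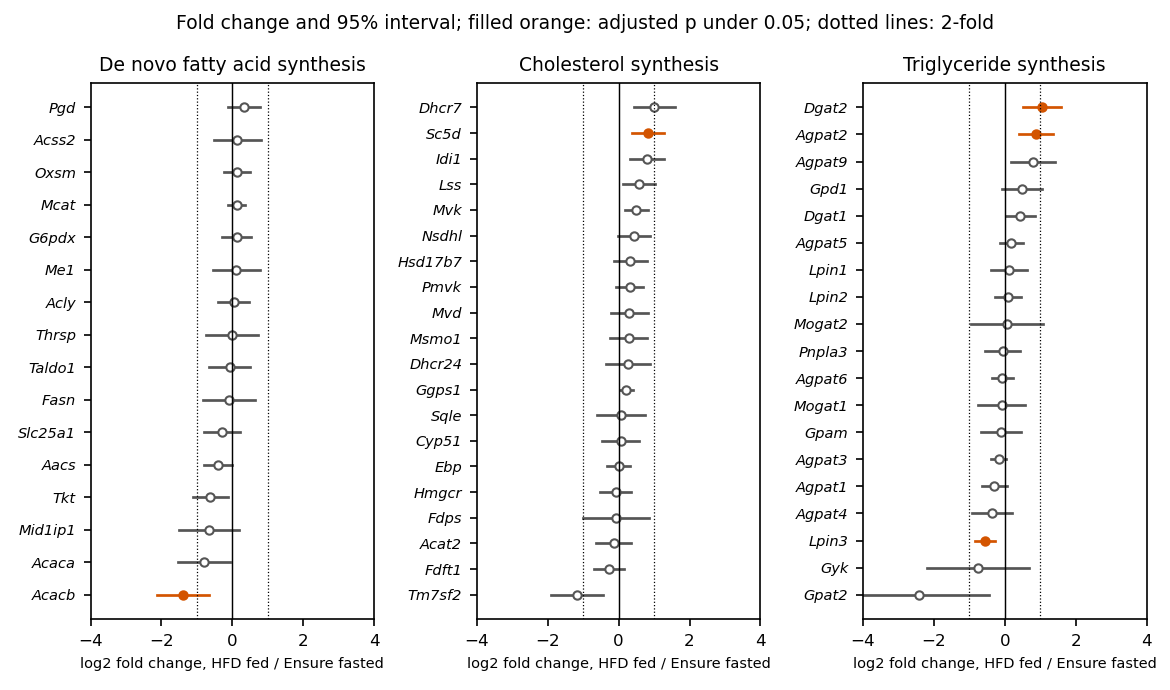
Log2 fold change of HFD fed over Ensure fasted with its 95% interval for each tested gene of 3 lipid synthesis lists; filled orange points passed an adjusted p of 0.05, and dotted lines mark 2-fold. In the fatty acid list 12 of 16 intervals lie between the dotted lines; Dgat2, Agpat2 and Sc5d are called higher and Acacb and Lpin3 lower.

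In cholesterol synthesis Sc5d was higher in HFD fed than in Ensure fasted. Of 20 tested cholesterol synthesis genes (Hmgcs1 was listed at 0 in every library), 1 was called higher and 0 lower in HFD fed, the interval lay within 2-fold for 14 (70%, against 67.2% of all genes), and the median was 0.27. Without HFD fed 25 that median was -0.02 and 0 were called, and leaving out any other library kept it between 0.24 and 0.37. Against Ensure fed the median of the list was -0.66 for HFD fed, with 6 called lower (30%, against 2.09% of all genes). For Ensure fasted it was -1.08, with 12 called lower (60%, against 9.77% of all genes).

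Sc5d, a late enzyme of cholesterol synthesis, had 132, 142, 232 and 139 CPM in HFD fed, against 74.1, 57.4, 112, 111 and 102 CPM in Ensure fasted and was higher in HFD fed (log2 fold change 0.82 ± 0.21 SE, adjusted p = 0.0465) without overlap. That call ended when any of 12 libraries was left out, among them each HFD fed library and Ensure fasted 2, 5 or 17 (highest adjusted p = 0.206). Idi1, an isomerase of the isoprenoid steps, had 4.14, 4.15, 7.41 and 4.28 CPM in HFD fed, against 2.73, 3.20, 2.59, 3.49 and 2.38 CPM in Ensure fasted. Mvk, mevalonate kinase, had 28.3, 24.9, 43.9 and 23.1 CPM in HFD fed, against 21.1, 18.99, 22.3, 21.2 and 22.2 CPM in Ensure fasted. Neither gene overlapped between the groups, but their adjusted p-values were 0.0699 and 0.0858. Dhcr7, the last enzyme of the pathway, was at 18.2 to 58.9 CPM in HFD fed, against 12.5 to 20.0 CPM in Ensure fasted. For Dhcr7, the log2 fold change was 1.01 ± 0.27 SE (95% interval 0.43 to 1.58, adjusted p = 0.0551). HFD fed 25 was the highest HFD fed library for Sc5d, Idi1, Mvk, Dhcr7, Pmvk, Lss and Nsdhl.

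In triglyceride synthesis Dgat2 and Agpat2 were higher and Lpin3 lower in HFD fed than in Ensure fasted. Of 19 triglyceride synthesis genes, 2 were called higher and 1 lower, against 1.62% and 1.46% of all genes. The median was -0.06, and 12 intervals lay within 2-fold (63.2%, against 67.2% of all genes). Dgat2, which joins the last fatty acid to diglyceride, had 2485, 2305, 3894 and 2244 CPM in HFD fed, against 1261, 562, 1930, 1415 and 1441 CPM in Ensure fasted. The lowest HFD fed library lay above the highest Ensure fasted one (log2 fold change 1.05 ± 0.25 SE, adjusted p = 0.0335), and Ensure fed was higher still, at 3931 to 5097 CPM. Agpat2, the acyltransferase that makes phosphatidic acid and is mutated in a human lipodystrophy, had 280.4, 320.0, 511 and 327 CPM in HFD fed, against 260.3, 104, 233, 182 and 198 CPM in Ensure fasted. It too did not overlap (log2 fold change 0.88 ± 0.23 SE, adjusted p = 0.0486), with Ensure fed at 600.2 to 1098 CPM. Lpin3, a phosphatidate phosphatase, was at 15.7 to 22.0 CPM in HFD fed, against 21.7 to 31.9 CPM in Ensure fasted and was lower in HFD fed (log2 fold change -0.56 ± 0.13 SE, adjusted p = 0.0311).

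These calls rest on few libraries. Dgat2 lost its call without HFD fed 21, 25 or 27 or Ensure fasted 2 or 17 (highest adjusted p = 0.150). Agpat2 lost it without any of 16 libraries and also under RLE size factors, and Lpin3 without HFD fed 21, 22 or 27 or Ensure fasted 2, 7 or 17. With no filter on low counts Dgat2 and Agpat2 both lost the call. Without the 5 tract-rich libraries 0 genes of the list were called in either direction, Dgat2 among them (log2 fold change 0.78, adjusted p = 0.0906). Gpam, the first acyltransferase of the pathway, averaged 149 ± 30.0 CPM in HFD fed and 161 ± 40.1 CPM in Ensure fasted (SD, n = 4 and 5). For Gpam, the log2 fold change was -0.11 ± 0.27 SE (95% interval -0.68 to 0.45, adjusted p = 0.864). Pnpla3, an acyltransferase-like droplet protein that rises with refeeding, averaged 377 ± 85.9 CPM in HFD fed and 392.2 ± 136 CPM in Ensure fasted (SD, n = 4 and 5), with Ensure fed at 1029 ± 62.7 CPM (SD, n = 6). Its interval between HFD fed and Ensure fasted lay within 2-fold (log2 fold change -0.06 ± 0.24 SE, 95% interval -0.55 to 0.44, adjusted p = 0.929).

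Lipolysis genes had 0 calls of 19 and adipokines 0 of 15, where 3.08% of all genes were called, so these counts do not set either list apart. The interval lay within 2-fold for 16 lipolysis genes (84.2%) and 10 adipokines (66.7%), against 67.2% of all genes. Pnpla2, the adipose triglyceride lipase, averaged 1695 ± 585 CPM in HFD fed and 2023 ± 589 CPM in Ensure fasted (SD, n = 4 and 5). For Pnpla2, the log2 fold change was -0.26 ± 0.27 SE (95% interval -0.82 to 0.31, adjusted p = 0.631). Lipe, hormone-sensitive lipase, averaged 1220.2 ± 244 CPM in HFD fed and 1017 ± 282 CPM in Ensure fasted (SD, n = 4 and 5). For Lipe, the log2 fold change was 0.26 ± 0.22 SE (95% interval -0.20 to 0.73, adjusted p = 0.525). Lep, the gene of leptin, had 3835, 2478, 6579 and 2652 CPM in HFD fed, against 1926, 825, 3295, 2695 and 2735 CPM in Ensure fasted (log2 fold change 0.76 ± 0.34 SE, 95% interval 0.04 to 1.48, adjusted p = 0.232), and its groups overlapped. Adipoq, the gene of adiponectin, averaged 3128 ± 904 CPM in HFD fed and 2284 ± 797 CPM in Ensure fasted (SD, n = 4 and 5). For Adipoq, the log2 fold change was 0.45 ± 0.26 SE (95% interval -0.09 to 1.00, adjusted p = 0.331).

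Of 14 lipid droplet coat genes, 0 were called higher and 1 lower, against 1.62% and 1.46% of all genes. The interval lay within 2-fold for 10 (71.4%, against 67.2% of all genes). Plin5, a coat protein that links droplets to mitochondria, had 12.6, 13.5, 11.4 and 13.4 CPM in HFD fed, against 22.9, 32.9, 36.6, 25.7 and 25.6 CPM in Ensure fasted. Every HFD fed library lay below every Ensure fasted library (log2 fold change -1.17 ± 0.23 SE, adjusted p = 0.0151), and the HFD fed level was near that of Ensure fed (11.7 to 18.4 CPM; log2 fold change -0.26 ± 0.22 SE, adjusted p = 0.604). The call ended without HFD fed 25 (adjusted p = 0.0576) and stood in the fit of the 9 libraries alone. Of 15 genes of fatty acid uptake, 0 were called higher and 2 lower, and 10 intervals lay within 2-fold (66.7%). Apoc1, an apolipoprotein that restrains lipoprotein clearance, was at 34.8 to 56.6 CPM in HFD fed, against 62.1 to 99.5 CPM in Ensure fasted (log2 fold change -0.87 ± 0.16 SE, adjusted p = 0.0133) and kept its call in each of 19 fits that left out 1 library. Apoc2, the activator of lipoprotein lipase, was at 1.302 to 2.44 CPM in HFD fed, against 2.40 to 6.92 CPM in Ensure fasted (log2 fold change -1.75 ± 0.33 SE, adjusted p = 0.0134). Its call ended without HFD fed 27 (adjusted p = 0.0505). Lpl, lipoprotein lipase itself, averaged 12292 ± 2285 CPM in HFD fed and 15900 ± 6245 CPM in Ensure fasted (SD, n = 4 and 5). For Lpl, the log2 fold change was -0.37 ± 0.25 SE (95% interval -0.89 to 0.15, adjusted p = 0.411).

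Pdk4 and Pck2 were lower in HFD fed than in Ensure fasted. Pdk4, the kinase that shuts pyruvate dehydrogenase, had 117, 192, 93.7 and 137 CPM in HFD fed, against 239, 254, 657, 678 and 559 CPM in Ensure fasted. All HFD fed libraries were below all Ensure fasted libraries (log2 fold change -1.82 ± 0.37 SE, adjusted p = 0.0175), and Ensure fed was at 44.0 to 107 CPM. HFD fed was not called against Ensure fed (log2 fold change 0.73 ± 0.34 SE, adjusted p = 0.248), whereas Ensure fasted was higher than Ensure fed (log2 fold change 2.56 ± 0.33 SE, adjusted p = 9.38e-05). The call of HFD fed against Ensure fasted ended without HFD fed 25 or 27 (highest adjusted p = 0.0719).

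Of 17 genes of the pyruvate switch and of glyceroneogenesis, 0 were called higher and 2 lower, Pdk4 and Pck2, against 1.62% and 1.46% of all genes. The interval lay within 2-fold for 14 (82.4%, against 67.2% of all genes). Pck2, the mitochondrial phosphoenolpyruvate carboxykinase, had 35.4, 46.2, 35.0 and 42.4 CPM in HFD fed, against 48.8, 88.7, 59.6, 56.9 and 64.7 CPM in Ensure fasted without overlap (log2 fold change -0.68 ± 0.15 SE, adjusted p = 0.0209). It lost its call without HFD fed 21, 25 or 27 (highest adjusted p = 0.0853). Pck1, the cytosolic enzyme that supplies glycerol for re-esterification, had 977, 3100.5, 444 and 2211 CPM in HFD fed, against 1019, 956, 2412, 2495 and 2429 CPM in Ensure fasted. It ranged from 444 CPM in HFD fed 25 to 3100 CPM in HFD fed 22, wider than the Ensure fasted range, and its interval was wide (log2 fold change -0.15 ± 0.47 SE, 95% interval -1.14 to 0.85, adjusted p = 0.905). Of 21 genes of glucose uptake and glycolysis, 0 were called, where 3.08% of all genes were, so this count does not set the list apart. Slc2a4, the insulin-responsive glucose transporter, averaged 139.6 ± 43.3 CPM in HFD fed and 92.5 ± 20.0 CPM in Ensure fasted (SD, n = 4 and 5). For Slc2a4, the log2 fold change was 0.59 ± 0.19 SE (95% interval 0.19 to 1.00, adjusted p = 0.102).

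Fkbp5 and Per1, which glucocorticoids induce, were lower in HFD fed than in Ensure fasted. Of 17 glucocorticoid-responsive genes, 0 were called higher and 2 lower in HFD fed, against 1.46% of all genes called lower. The groups did not overlap for 5 lower ones, against 3.2% of all genes, and the median was -0.40. The list's median was -0.01 in HFD fed against Ensure fed and 0.50 in Ensure fasted against Ensure fed. Fkbp5, a chaperone of the glucocorticoid receptor that glucocorticoids induce, had 75.0, 50.1, 51.8 and 56.2 CPM in HFD fed, against 183, 309, 171, 149 and 129.9 CPM in Ensure fasted. The highest HFD fed library was well below the lowest Ensure fasted one (log2 fold change -1.69 ± 0.25 SE, adjusted p = 0.00356), and Ensure fed was at 60.4 to 87.9 CPM. Fkbp5 kept its call in each of 19 fits that left out 1 library. Per1, a clock gene that glucocorticoids also induce, had 48.6, 68.0, 51.4 and 46.7 CPM in HFD fed, against 134, 100.5, 88.1, 75.2 and 79.2 CPM in Ensure fasted, again without overlap (log2 fold change -0.83 ± 0.19 SE, adjusted p = 0.0248). Its call ended without HFD fed 21, 25 or 27, and without the 5 tract-rich libraries (log2 fold change -0.59, adjusted p = 0.149).

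Cebpd, a transcription factor induced early in adipogenesis, was at 17.7 to 22.7 CPM in HFD fed, against 27.6 to 32.6 CPM in Ensure fasted. For Cebpd, the log2 fold change was -0.58 ± 0.16 SE (95% interval -0.91 to -0.25, adjusted p = 0.0515). Tsc22d3, the glucocorticoid-induced leucine zipper, was at 141 to 169 CPM in HFD fed, against 149 to 349 CPM in Ensure fasted. For Tsc22d3, the log2 fold change was -0.80 ± 0.22 SE (95% interval -1.26 to -0.34, adjusted p = 0.0551). Neither passed the threshold, although the Cebpd groups did not overlap. Without the 5 tract-rich libraries Tsc22d3 was called lower (log2 fold change -1.10, adjusted p = 0.00246) and Cebpd was not called (adjusted p = 0.100). In that fit 3 of the 17 glucocorticoid-responsive genes were called lower. Igfbp3, which binds insulin-like growth factors, was the 1 called gene of 25 in the insulin, FoxO and IGF list, at 31.7 to 46.9 CPM in HFD fed, against 47.4 to 90.6 CPM in Ensure fasted. For Igfbp3, the log2 fold change was -0.84 ± 0.19 SE (adjusted p = 0.0303). Its call ended without HFD fed 22, 25 or 27 or Ensure fasted 17 (highest adjusted p = 0.117). Herpud1, which serves degradation of proteins at the endoplasmic reticulum, was the 1 called gene of 24 in the amino acid and ER stress list, at 59.2 to 69.7 CPM in HFD fed, against 81.2 to 114 CPM in Ensure fasted (log2 fold change -0.57 ± 0.11 SE, adjusted p = 0.0115), and kept its call in each of 19 fits that left out 1 library. Chac1, a glutathione-degrading enzyme of the same list, was at 5.18 to 7.41 CPM in HFD fed, against 8.65 to 17.7 CPM in Ensure fasted. For Chac1, the log2 fold change was -1.004 ± 0.27 SE (adjusted p = 0.0525). Without the 5 tract-rich libraries Chac1 was called lower (log2 fold change -1.21, adjusted p = 0.0199).

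**Figure D4:**
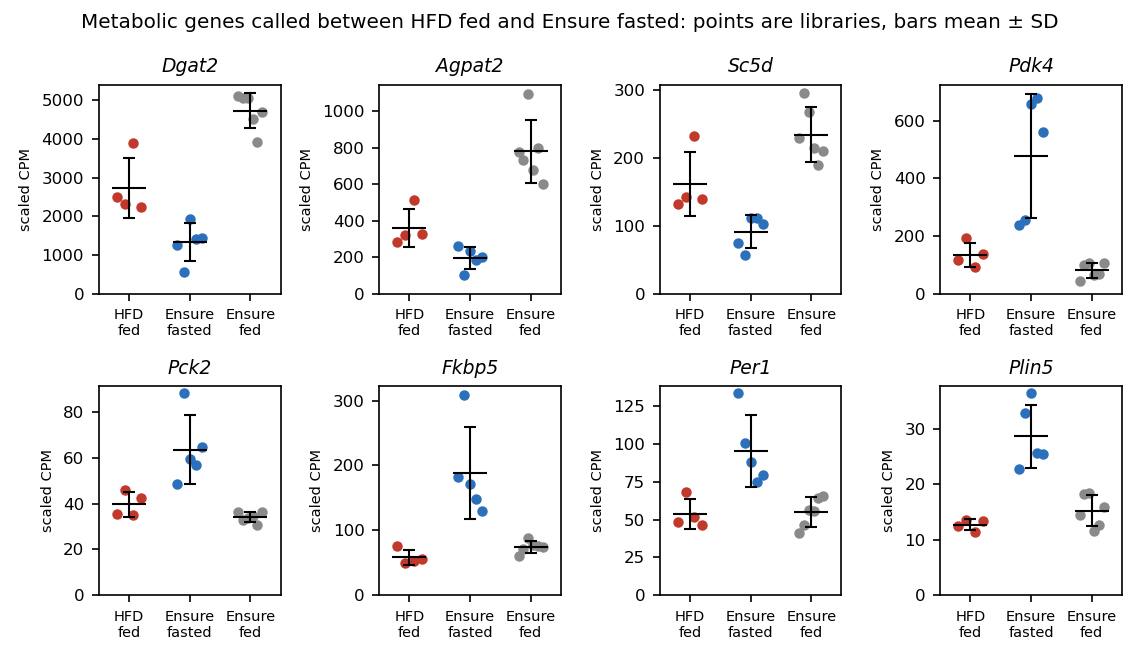
Scaled CPM of 8 metabolic genes that passed an adjusted p of 0.05 between HFD fed and Ensure fasted, on linear axes; points are libraries and bars the mean ± SD of HFD fed (n = 4), Ensure fasted (n = 5) and Ensure fed (n = 6). Dgat2, Agpat2 and Sc5d are higher in HFD fed and Pdk4, Pck2, Fkbp5, Per1 and Plin5 lower, with no overlap between these groups in any of the 8 panels.

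All 47 intervals of oxidative phosphorylation genes lay within 2-fold, as did 67.2% of those of all genes, and 1 was called higher: Uqcrc2, a core subunit of complex III, at 164 to 195 CPM in HFD fed, against 124 to 152 CPM in Ensure fasted. For Uqcrc2, the log2 fold change was 0.35 ± 0.07 SE (adjusted p = 0.0190). That call ended without HFD fed 27 (adjusted p = 0.0605). Of 32 genes of fatty acid oxidation and ketone metabolism 0 were called and 27 intervals lay within 2-fold (84.4%). Of 23 genes that break down leucine, isoleucine and valine 0 were called with 21 within 2-fold (91.3%). Of 38 ribosomal protein genes 0 were called with 35 within 2-fold (92.1%). The autophagy and lysosome list (30 genes) and the heat shock list (14 genes) had 0 calls, and of 19 clock genes only Per1 was called. As 3.08% of all genes were called, these counts do not set the lists apart.

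Of 16 thermogenic genes, 1 was called higher and 0 lower, against 1.62% and 1.46% of all genes. Prdm16, a determinant of brown and beige fat cells, had 18.3, 13.6, 17.5 and 16.3 CPM in HFD fed, against 10.6, 11.1, 8.85, 9.49 and 9.99 CPM in Ensure fasted without overlap (log2 fold change 0.71 ± 0.16 SE, adjusted p = 0.0228). Its call ended without HFD fed 21, 25 or 27 or Ensure fasted 7 or 17, and 4 of the 16 intervals lay within 2-fold (25%, against 67.2% of all genes). Otop1, a proton channel found in brown fat, had 15.4, 4.20, 33.8 and 6.28 CPM in HFD fed, against 2.52, 0.9496, 7.17, 3.62 and 2.28 CPM in Ensure fasted (log2 fold change 2.17 ± 0.59 SE, 95% interval 0.94 to 3.41, adjusted p = 0.0531). HFD fed 21 and 25 were the high libraries, the other HFD fed libraries overlapped with Ensure fasted, and Otop1 was not called. Of 20 immediate early genes, Egr1, a transcription factor induced by growth signals, was called higher at 39.0 to 83.9 CPM in HFD fed, against 18.8 to 31.4 CPM in Ensure fasted. For Egr1, the log2 fold change was 1.15 ± 0.26 SE (adjusted p = 0.0272). It lost the call without HFD fed 25 or 27 (highest adjusted p = 0.122).

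A group of 10 interferon-responsive genes was lower in HFD fed than in Ensure fasted. Interferons bind receptors that switch on antiviral genes through STAT proteins and IRF9, which binds a promoter element of repeated GAAA. Of 24 such genes tested, 0 were called higher and 10 lower, against 1.46% of all genes called lower, and the median log2 fold change was -0.78. The groups did not overlap for 10 lower genes, against 3.2% of all genes. The median was -0.40 in HFD fed against Ensure fed, with 0 called in either direction, where 4.26% of all genes were called. In Ensure fasted against Ensure fed it was 0.49, with 2 called higher (8.33%, against 10.6% of all genes).

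Irf7, the factor that amplifies the interferon response, had 19.4, 24.0, 20.8 and 24.0 CPM in HFD fed, against 37.2, 47.7, 67.6, 177 and 152 CPM in Ensure fasted. Ensure fasted 8 and 17 were the highest and 2 and 5 the lowest of that group, all above HFD fed (log2 fold change -2.13 ± 0.45 SE, adjusted p = 0.0203). Ifit1, which binds viral RNA, had 5.64, 9.25, 9.14 and 7.90 CPM in HFD fed, against 11.6, 19.04, 28.2, 46.0 and 44.4 CPM in Ensure fasted. For Ifit1, the log2 fold change was -1.90 ± 0.39 SE (adjusted p = 0.0180). Isg15, a ubiquitin-like modifier, had 3.31, 4.26, 4.92 and 4.70 CPM in HFD fed, against 7.91, 10.3, 10.9, 17.8 and 19.03 CPM in Ensure fasted. For Isg15, the log2 fold change was -1.62 ± 0.37 SE (adjusted p = 0.0276). The order within Ensure fasted was alike for Ifit1 and Isg15, with 8 and 17 above 2, 5 and 7, and no Ensure fasted library of either gene fell into the HFD fed range.

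The promoters of Isg15 and Ifit1 are shown because both genes moved with the list and hold the repeated GAAA element that IRF9 complexes bind. The sequences are from RefSeq on build GRCm38.p6, run 5′ to 3′ along the gene from 250 bases before to 50 bases after its start, and capitals mark each match, on either strand, to a pair of GAAA letters set apart by any 2 bases. Isg15 lies at chr4:156200769-156201068 on the minus strand with 3 overlapping matches, and Ifit1 at chr19:34640639-34640938 on the plus strand with 2.
Isg15: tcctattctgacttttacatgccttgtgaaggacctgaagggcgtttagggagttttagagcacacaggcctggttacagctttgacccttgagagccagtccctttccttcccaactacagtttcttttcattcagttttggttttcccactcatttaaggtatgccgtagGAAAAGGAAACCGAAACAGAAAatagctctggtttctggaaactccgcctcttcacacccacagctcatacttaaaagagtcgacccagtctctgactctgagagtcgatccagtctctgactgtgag
Ifit1: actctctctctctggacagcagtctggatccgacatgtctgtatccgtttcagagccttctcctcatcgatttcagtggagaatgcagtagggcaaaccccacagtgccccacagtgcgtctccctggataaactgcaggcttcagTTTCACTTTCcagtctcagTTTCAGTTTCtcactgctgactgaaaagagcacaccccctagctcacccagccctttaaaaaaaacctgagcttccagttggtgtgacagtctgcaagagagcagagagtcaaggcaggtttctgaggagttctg
Of 19 tested list members with a promoter in the table, 11 held the element, against 3.993% of all 27025 genes with a promoter there. Of the called members, only Bst2, Ifit1 and Isg15 were among the 11. Irf7, Irf9, Oas2, Oasl2, Mx2, Usp18 and Ifi44 were not, but only 19 of the 24 tested members had a promoter there. Members without one were not searched, so absence from the 11 does not show that a gene lacks the element. The list was chosen as interferon-responsive, so its share does not bear on which genes differed. A match is a description of the letters and not a measured binding site.

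The other called members were Irf9 (-0.62 ± 0.15 SE), Oas2 (-1.54 ± 0.39), Oasl2 (-1.22 ± 0.29), Mx2 (-1.53 ± 0.36), Usp18 (-1.24 ± 0.33), Ifi44 (-1.60 ± 0.40) and Bst2 (-1.20 ± 0.32), each given as a log2 fold change, with adjusted p-values of 0.0314 to 0.0496. Oas2 and Oasl2 belong to the oligoadenylate synthetase family that senses double-stranded RNA, Mx2 is a dynamin-like antiviral GTPase, Usp18 removes Isg15 from proteins, and Bst2 tethers budding virus. HFD fed values spanned little in each, for example 21.1 to 26.9 CPM in HFD fed, against 37.2 to 93.6 CPM in Ensure fasted for Oasl2. The count of called members was 13 without the 5 tract-rich libraries, which leaves HFD fed 21 in, 8 without the 8 libraries (HFD fed 21, Ensure fed 16 and HFD fasted 26 left out as well) and 6 with no filter on low counts. It was 6 without Ensure fasted 7, 2 without Ensure fasted 17, 3 without HFD fed 22 and 0 without HFD fed 21, 25 or 27. Over the 19 fits that each left out 1 library, the median of the list stayed between -0.95 and -0.63.

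**Figure D5:**
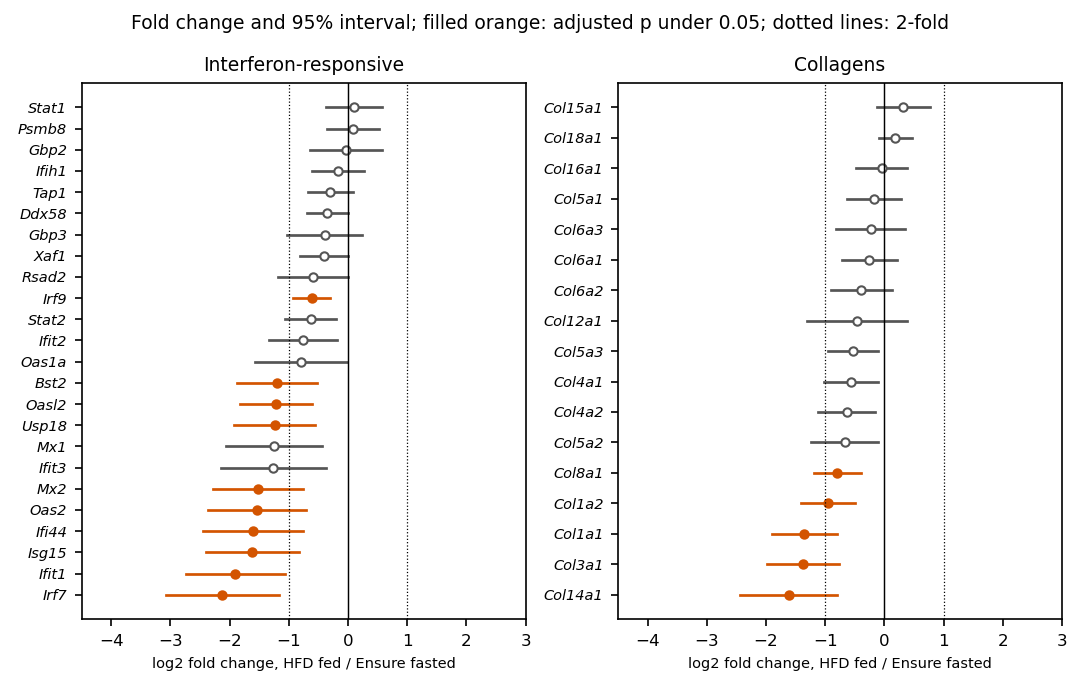
Log2 fold change of HFD fed over Ensure fasted with its 95% interval for 24 interferon-responsive and 17 collagen genes; filled orange points passed an adjusted p of 0.05, and dotted lines mark 2-fold. Called genes all lie below 0: 10 of the interferon list, led by Irf7 at -2.13, and 5 collagens, led by Col14a1 at -1.62.

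A group of collagen genes was lower in HFD fed. Of 17 collagen genes, 0 were called higher and 5 lower, against 1.46% of all genes called lower, with a median of -0.53. Col1a1, the main chain of type I collagen, had 602, 325, 574 and 361 CPM in HFD fed, against 1515, 892, 882, 1664 and 983 CPM in Ensure fasted without overlap (log2 fold change -1.35 ± 0.26 SE, adjusted p = 0.0135). Col3a1, the chain of type III collagen, had 2013, 1165, 2395 and 1286 CPM in HFD fed, against 4949, 2164, 3975, 6534 and 4545 CPM in Ensure fasted. Ensure fasted 5 lay within the HFD fed range of Col3a1, and the other Ensure fasted libraries lay above it (log2 fold change -1.37 ± 0.29 SE, adjusted p = 0.0196). Col1a2 (-0.96 ± 0.21), Col8a1 (-0.79 ± 0.19) and Col14a1 (-1.62 ± 0.39) were the other called chains, with log2 fold changes given ± SE and adjusted p-values of 0.0250 to 0.0332.

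HFD fed was also below Ensure fed for Col1a1 (log2 fold change -1.05 ± 0.25 SE, adjusted p = 0.0246) and Col3a1 (log2 fold change -1.33 ± 0.28 SE, adjusted p = 0.0133). There 6 collagens were called lower, against 2.09% of all genes. Ensure fasted against Ensure fed had a list median of -0.09 with 2 called lower, against 9.77% of all genes. The count of 5 became 7 without the 5 tract-rich libraries, 3 without HFD fed 21 or Ensure fasted 17, 2 without HFD fed 25, 1 without HFD fed 22 and 0 without HFD fed 27, and 9 without Ensure fasted 5. Among 12 stromal progenitor markers the actin-severing Gsn was higher, at 7432 to 13578 CPM in HFD fed, against 4016 to 6809.9 CPM in Ensure fasted (log2 fold change 0.91 ± 0.19 SE, adjusted p = 0.0190), and the microfibril gene Fbn1 lower, at 349 to 551 CPM in HFD fed, against 421 to 1887 CPM in Ensure fasted. For Fbn1, the log2 fold change was -1.38 ± 0.36 SE (adjusted p = 0.0454). Gsn ended without HFD fed 22 or 27 and Fbn1 without any of 14 libraries (highest adjusted p = 0.0660 and 0.132).

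A group of mast cell markers was higher in HFD fed. Of 10 markers, 4 were called higher and 0 lower, against 1.62% of all genes called higher, and their summed level was 114 to 284 CPM in HFD fed, against 41.2 to 162 CPM in Ensure fasted. Cpa3, a carboxypeptidase of mast cell granules, had 44.8, 16.0, 18.7 and 47.4 CPM in HFD fed, against 4.48, 9.40, 8.19, 3.56 and 5.53 CPM in Ensure fasted. For Cpa3, the log2 fold change was 2.34 ± 0.52 SE (adjusted p = 0.0228). Mcpt4, a mast cell chymase, had 43.7, 14.6, 17.0 and 44.5 CPM in HFD fed, against 4.20, 9.30, 5.12, 2.90 and 4.16 CPM in Ensure fasted. For Mcpt4, the log2 fold change was 2.54 ± 0.55 SE (adjusted p = 0.0224). HFD fed 21 and 27 were about alike and well above 22 and 25, which still lay above every Ensure fasted library. Cma1, another chymase, was higher (log2 fold change 2.46 ± 0.58 SE, adjusted p = 0.0314), as was Tpsb2, a tryptase (log2 fold change 2.45 ± 0.54 SE, adjusted p = 0.0232). Near-identical protease copies can share reads, so their separate values are uncertain.

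The receptor genes Mrgprb1 (2.80 ± 0.58), Mrgprb2 (2.83 ± 0.75) and Mrgprx2 (3.05 ± 0.68), of a family in which Mrgprb2 is the mast cell receptor for basic secretagogues, were among the 10 genes with the largest rise (log2 fold change ± SE). Mrgprb2 lost its call without any of 15 libraries (highest adjusted p = 0.122). Kit, the stem cell factor receptor, and Hdc, which makes histamine, are markers of the same list that other cells also express; they were not called, with log2 fold changes of 0.21 ± 0.23 and 0.01 ± 0.64. The 4 calls fell to 0 without HFD fed 21 or 27 or Ensure fasted 17, and to 3 without HFD fed 25 or Ensure fasted 2. Against Ensure fed, 7 of the 10 were called higher in HFD fed, where 2.17% of all genes were.

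Of 15 markers of lipid-associated macrophages, which gather in fat of obese mice, 1 was called higher and 0 lower, with a median of 0.94. Without Ensure fasted 8, 6 were called higher and the median was 1.69, and without Ensure fasted 5, 0 were called higher and 1 lower, with a median of 0.71. Without HFD fasted 28 the count was 4 higher, and without HFD fasted 24 it was 2. Without the 5 tract-rich libraries 0 were called (median 0.62), and likewise without the 8 (median 0.50). Itgax, the integrin CD11c, had 185, 72.6, 177 and 154 CPM in HFD fed, against 25.7, 11.6, 27.8, 58.6 and 22.3 CPM in Ensure fasted without overlap (log2 fold change 2.33 ± 0.57 SE, adjusted p = 0.0338). Its call ended without HFD fed 21, 25 or 27 or Ensure fasted 2, 5, 7 or 17 (highest adjusted p = 0.105). Against Ensure fed, Itgax was higher as well (log2 fold change 2.56 ± 0.53 SE, adjusted p = 0.0123), and 6 of the 15 were called higher, where 2.17% of all genes were. General macrophage markers had 0 calls of 14, where 3.08% of all genes were called, so this count does not set them apart. Their summed level was 2426 to 4158 CPM in HFD fed and 1425 to 6536 CPM in Ensure fasted.

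Neutrophil markers called lower in HFD fed included genes with only a few counts there. Of 9 tested, 0 were called higher and 5 lower, against 1.46% of all genes called lower. Retnlg, Ngp and Cxcr2, among the 5, had at most 5 counts in any HFD fed library. They passed the count filter through libraries of other groups. With the stricter filter (minimum count 50), 4 markers were tested and 2 called lower. The list summed to 22.5 to 46.5 CPM in HFD fed, against 47.3 to 202 CPM in Ensure fasted. S100a9, a calcium-binding protein of neutrophil granules, had 0.497, 0.525, 1.12 and 1.16 CPM in HFD fed, against 54.4, 2.00, 6.99, 4.74 and 4.31 CPM in Ensure fasted. For S100a9, the log2 fold change was -4.12 ± 0.86 SE (adjusted p = 0.0180). Ensure fasted 2 was far above the rest, and every other Ensure fasted library still lay above HFD fed. With Ensure fasted 2 left out its log2 fold change was -2.44. S100a8, which pairs with S100a9 in 1 protein complex, was at 4.73 to 29.6 CPM in HFD fed, against 5.70 to 50.8 CPM in Ensure fasted and was not called (log2 fold change -0.51 ± 0.63 SE, adjusted p = 0.690).

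Cxcr2, a chemokine receptor of neutrophils, had 3, 3, 1 and 5 counts in HFD fed, against 54, 6, 16, 10 and 21 counts in Ensure fasted. Its log2 fold change was -2.35 without Ensure fasted 2 (adjusted p = 0.0548), and at these counts the size of that fold is uncertain. Retnlg, Ngp and Camp, granule and cytokine genes, were at or under the floor of 3 counts in each HFD fed library, with 7, 4 and 1 counts over the 4 libraries, against 246, 254 and 99 counts over the 5 Ensure fasted libraries. Ensure fasted 2 supplied 196, 204 and 78 of those counts, so no fold is given for these 3 genes. The 5 calls fell to 2 without Ensure fasted 2, to 3 without Ensure fed 12 and to 0 without any 1 of the 4 HFD fed libraries. The red cell gene Slc4a1 moved beside them, with 14 counts over HFD fed and 90 over Ensure fasted (log2 fold change -2.67 ± 0.63 SE, adjusted p = 0.0314), and lost its call without any 1 HFD fed library or Ensure fasted 2. Slc4a1 had 2, 4, 6 and 2 counts in HFD fed, with 2 libraries under the floor, so the size of its fold is uncertain.

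Cd4 was the 1 called gene of 11 T cell markers, at 1.22 to 3.58 CPM in HFD fed, against 6.65 to 17.6 CPM in Ensure fasted. For Cd4, the log2 fold change was -2.18 ± 0.45 SE (adjusted p = 0.0180). The call ended without HFD fed 25 (adjusted p = 0.0719), the general T cell genes were not called, and the median of the list was 0.44. B cell and endothelial markers had 0 calls of 10 and of 12, where 3.08% of all genes were called. All 12 endothelial intervals lay within 2-fold, against 67.2% of those of all genes. Smooth muscle (11 genes), mesothelial (10), reproductive tract epithelium (10), epididymis (10), sperm cell (10) and liver (7) markers had 0 calls in either direction, with medians of -1.91, -0.55, -1.96, -2.89, -3.49 and -0.89. These medians rest on few libraries. Without the 5 tract-rich libraries they were -0.18, -0.18, 2.81, -0.84, 0.60 and -0.69 in the same order, with 1 smooth muscle gene called lower. Without Ensure fasted 5 the smooth muscle median was -0.27 (2 called lower) and that of tract epithelium -0.47, and without Ensure fasted 2 that of sperm cells was -1.31 and that of liver -0.53. Without HFD fed 21 the tract epithelium median was -4.05 and that of epididymis -4.39. Smooth muscle had 5 genes called lower without Ensure fasted 8.

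Among the genes with the largest rise in HFD fed, Grid1, a subunit of the delta glutamate receptors, had 7.62, 6.25, 16.8 and 6.00 CPM in HFD fed, against 1.82, 0.850, 1.51, 0.922 and 0.710 CPM in Ensure fasted. It did not overlap (log2 fold change 2.98 ± 0.36 SE, adjusted p = 0.000712), kept its call in each of 19 fits that left out 1 library, and was at 6.87 to 11.2 CPM in Ensure fed, near HFD fed. Gpr50, an orphan receptor related to the melatonin receptors, had 35.9, 7.25, 46.1 and 14.1 CPM in HFD fed, against 0.770, 4.75, 0.241, 0.198 and 0 CPM in Ensure fasted. For Gpr50, the log2 fold change was 4.403 ± 0.99 SE (adjusted p = 0.0249). It was at most 0.470 CPM in Ensure fed, and 4.75 CPM of Ensure fasted 5 set that library apart from the other Ensure fasted libraries. Without Ensure fasted 5 the log2 fold change of Gpr50 was 6.46. Its counts in Ensure fasted were 11, 95, 4, 3 and 0, some at or under the floor of 3 counts. The size of both folds is therefore uncertain. The call of Gpr50 ended without HFD fed 21, 25 or 27 (highest adjusted p = 0.0900).

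Trdn, the sarcoplasmic reticulum protein triadin, had 9.03, 6.04, 27.6 and 7.95 CPM in HFD fed, against 0.700, 0.350, 1.75, 0.725 and 1.07 CPM in Ensure fasted (log2 fold change 3.78 ± 0.78 SE, adjusted p = 0.0180) and lost its call without HFD fed 25 (log2 fold change 3.06, adjusted p = 0.0744). Alpk2, an alpha-kinase, was at 1.33 to 4.06 CPM in HFD fed, against 0.100 to 0.527 CPM in Ensure fasted. For Alpk2, the log2 fold change was 3.54 ± 0.53 SE (adjusted p = 0.00356). H2-M2, a nonclassical histocompatibility gene, was at 1.68 to 4.01 CPM in HFD fed, against 0.120 to 0.507 CPM in Ensure fasted. For H2-M2, the log2 fold change was 3.18 ± 0.49 SE (adjusted p = 0.00419). Both kept their calls in each of 19 fits that left out 1 library, although counts were low: 32 to 80 and 32 to 79 per HFD fed library, against 2 to 8 and 2 to 10 per Ensure fasted library. Some of these Ensure fasted counts were at or under the floor of 3 counts, so the size of both folds is uncertain.

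Among the genes with the largest fall in HFD fed, Acta1, the actin of skeletal muscle, had 10.1, 14.3, 17.2 and 8.74 CPM in HFD fed, against 37.9, 247, 84.7, 52.2 and 72.0 CPM in Ensure fasted. For Acta1, the log2 fold change was -2.98 ± 0.48 SE (adjusted p = 0.00617). Ensure fasted 5 was the highest at 247 CPM, and the call held in each of 19 fits that left out 1 library, with a log2 fold change of -2.30 without Ensure fasted 5. It was the 1 called gene of 8 skeletal muscle markers. Cxcl13, which attracts B cells, had 3.40, 2.15, 2.03 and 3.77 CPM in HFD fed, against 90.5, 28.0, 32.9, 23.3 and 82.2 CPM in Ensure fasted. For Cxcl13, the log2 fold change was -4.17 ± 0.88 SE (adjusted p = 0.0198). Ensure fed spanned 9.69 to 203 CPM; the call ended without HFD fed 22, 25 or 27 (highest adjusted p = 0.0795) but stood in the fit of the 9 libraries alone.

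Fbn2, a fibrillin of microfibrils, was at 0.0930 to 1.04 CPM in HFD fed, against 2.17 to 15.1 CPM in Ensure fasted. For Fbn2, the log2 fold change was -4.03 ± 0.80 SE (adjusted p = 0.0158). Angptl7, an angiopoietin-like secreted protein, was at 0.0508 to 0.790 CPM in HFD fed, against 1.52 to 12.7 CPM in Ensure fasted. For Angptl7, the log2 fold change was -4.003 ± 0.88 SE (adjusted p = 0.0228). The floor of 3 counts was 0.124 to 0.158 CPM in HFD fed. The lowest HFD fed values, 0.0930 CPM of Fbn2 and 0.0508 CPM of Angptl7, lay under it, so the size of both folds is uncertain. Fbn2 lost its call without HFD fed 25 or 27, and its log2 fold change reached -4.80 with HFD fed 21 left out. Angptl7 lost its call without HFD fed 21, 22 or 25, and reached -4.77 with HFD fed 27 left out. Fpr1, a formyl peptide receptor of neutrophils, had 13 counts over HFD fed and 221 over Ensure fasted, of which 118 were in Ensure fasted 17 (log2 fold change -3.96 ± 1.02 SE, adjusted p = 0.0431). Fpr1 lost its call without any of 9 libraries, each HFD fed library and Ensure fasted 2 and 17 among them. With Ensure fasted 17 left out its log2 fold change was -3.32. Fpr1 had 5, 1, 4 and 3 counts in HFD fed, some at or under the floor, so the size of its folds is uncertain.

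Adamts8, a secreted metalloprotease, had 1.04, 0.420, 0.254 and 0.325 CPM in HFD fed, against 2.87, 18.5, 1.87, 2.37 and 2.69 CPM in Ensure fasted. For Adamts8, the log2 fold change was -3.45 ± 0.74 SE (adjusted p = 0.0206). Clca3a2, a chloride channel accessory protein of epithelia, had 6 counts over HFD fed and 684 over Ensure fasted. Ensure fasted 5, the library with 11408 CPM of epididymis markers, held 624 of those 684 counts and the 18.5 CPM of Adamts8. Without it the log2 fold change of Adamts8 was -2.26 (it was -4.06 without HFD fed 21), and Clca3a2 was not called (adjusted p = 0.0862). Adamts8 also lost its call without HFD fed 22, 25 or 27, and Clca3a2 without any 1 HFD fed library or Ensure fed 12; the part of the tract tissue in both was not tested further.

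Of the 63 named genes that were called, 8 kept the call in each of 19 fits that left out 1 library, among them Alpk2, H2-M2 and Grid1, higher in HFD fed, and Apoc1, Fkbp5, Herpud1 and Acta1, lower in HFD fed. Alpk2 and H2-M2 had at most 8 and 10 counts in any Ensure fasted library. Without the 5 tract-rich libraries 42 of the 63 stayed called, without the 8 libraries 35 did, and the fit of the 9 libraries alone kept Plin5 and Cxcl13. With no filter on low counts 51 stayed called, and the 12 that did not were Acacb, Hacd1, Sc5d, Agpat2, Dgat2, Oas2, Usp18, Ifi44, Bst2, Fbn1, Mrgprb2 and Fpr1. None of the 63 changed sign under any alternative run.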

How the data were processed

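Poly-A RNA of whole perigonadal fat was sequenced on a HiSeq2000, per the labels' protocols. The authors deposited raw counts per gene and library; the submitters' processing notes name bcl2fastq 1.8.4, TopHat2 2.1, HTSeq 0.6.1 and build mm9. Strand use is not given in the sources used here, so overlapping and antisense genes are uncertain. Summary rows were removed: reads in no feature made 13.0 to 17.3%, ambiguous reads 0.695 to 0.893% and reads not uniquely aligned 20.7 to 27.7%.

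All 19 libraries (12.82 to 22.55 M counts) were fitted in 4 groups with edgeR 4.0.16 in R 4.3.3 (TMM, filterByExpr with a minimum count of 10, quasi-likelihood test, Benjamini-Hochberg over 16015 of 24348 genes, threshold 0.05), so that the groups share 1 estimate of the spread. SE and 95% intervals come from the same test. The floor of 3 counts is 0.124 to 0.210 CPM per library, and covers counting error only. No 2 libraries of a group agreed within counting noise.

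On simulated data for HFD fed against Ensure fasted (15890 genes), 56% of 100 genes changed 2-fold and 82% of 100 changed 4-fold were recovered, with 2.82% false calls. Apart from the changed genes, each simulated gene had the same mean share in all groups, with the fitted spread. The simulation held no lane effect, no tract-rich library and no other difference between groups. Its rates therefore do not give the share of false calls in these data. Alternatives were RLE and library-size scaling, no filter and a stricter one, DESeq2 1.42.0, limma 3.58.1 voom, lane as a term, the 2 groups alone, each library left out, and tract-rich libraries left out; DESeq2 with lane was added after seeing the data. Genes were named by rule: the 10 with the largest rise and the 10 with the largest fall among calls without overlap between the groups and with 1 CPM or more on average (predicted names passed over), up to 4 members of each pathway list by smallest p, and a set of fixed genes, of which the text gives those its results turn on. Other called list members and cell markers were named after their values were seen. The members and lists were chosen with earlier results of these data known. Groups share no replicate numbers. Some results are not reported here.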

Additional observations from a re-analysis of the deposited data

Results flagged for a closer look

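Of 190 groups of values (95 genes in HFD fed and in Ensure fasted), 26 had a library far from the rest of its group by Dixon's test; chance alone flags about 1 in 20 such groups. In HFD fed, library 25 was the one set apart for 10 genes. It had 217 CPM of Acss2 (88.2 to 110 in the other 3), 406 CPM of Me1 (204 to 236), 365 CPM of Slc25a1 (199 to 219), 232 CPM of Sc5d (132 to 142) and 7.41 CPM of Idi1 (4.14 to 4.28). It also had 58.9 CPM of Pmvk (33.5 to 37.6), 22.0 CPM of Lpin3 (15.7 to 16.3), 3894 CPM of Dgat2 (2244 to 2485), 27.6 CPM of Trdn (6.04 to 9.03) and 16.8 CPM of Grid1 (6.00 to 7.62). HFD fed 21 was low for Oasl2, at 21.1 CPM (26.0 to 26.9 in the others), and for Usp18, at 4.35 CPM (6.55 to 6.93).

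In Ensure fasted, library 5, with the epididymis and smooth muscle markers, was set apart for 7 genes. It was high for Scd2 at 802 CPM (280 to 355 in the other 4), Gpr50 at 4.75 CPM (0 to 0.770), Clca3a2 at 31.2 CPM (0.198 to 2.17), Adamts8 at 18.5 CPM (1.87 to 2.87) and Acta1 at 247 CPM (37.9 to 84.7). It was low for Agpat9 at 30.5 CPM (50.7 to 57.7) and Apoc2 at 2.40 CPM (5.72 to 6.92).

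Ensure fasted 2 was low for Acly at 213 CPM (318 to 361) and high for neutrophil genes: S100a9 at 54.4 CPM (2.00 to 6.99), Retnlg at 13.7 CPM (0.250 to 1.33), Cxcr2 at 3.78 CPM (0.300 to 1.07) and Ngp at 14.3 CPM (0.203 to 1.39). Ensure fasted 17 was high for Cebpd at 32.6 CPM (27.6 to 29.0) and Fpr1 at 5.99 CPM (1.14 to 2.24).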

How the results depend on the processing

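The calls of HFD fed against Ensure fasted depend on the fit. Higher and lower counts were 563 and 781 with DESeq2, 1260 and 1238 with limma voom, 7 and 12 for the 2 groups alone, 0 and 0 with lane as a term (smallest adjusted p 0.730; 478 genes at an unadjusted p under 0.05) and 0 and 3 with DESeq2 and lane. They were 111 and 270 without the 5 tract-rich libraries, where 29.13% of calls were higher against 52.63% in the fit of all libraries, and 75 and 152 without the 8 (33.04%); DESeq2 had 41.89%. With no filter 148 were lower. Leaving out 1 library gave 77 to 538 higher and 52 to 406 lower, lowest without HFD fed 25 (77 and 55) or HFD fed 27 (83 and 52).

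For HFD fed against Ensure fed the counts were 645 and 906 (DESeq2), 14 and 26 (DESeq2 with lane), 3021 and 2420 (voom), 0 and 2 (lane), 1411 and 1349 (the groups alone), 220 higher without the 5, and 96 and 111 without the 8; leaving out 1 library gave 101 to 701 and 85 to 656. For Ensure fasted against Ensure fed they were 568 and 1032 (DESeq2 with lane), 2996 and 2642 (voom), 260 and 500 (lane), 479 and 598 (without the 5) and 305 and 422 (without the 8); leaving out 1 library gave 858 to 2349 higher.

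Genes near 0 changed sign, none of them called. Fasn had 0.0534 (DESeq2 with lane) and 0.0823 (lane). In the order DESeq2 with lane, voom, lane, without the 5 and without the 8, Acly had -0.20, -0.19, -0.17, -0.0315 and -0.0058, Acss2 -0.0865, -0.45, -0.0583, -0.27 and -0.20, Me1 -0.15, -0.38, -0.12, -0.33 and -0.27, and Scd1 -0.18, -0.0902, -0.15, -0.24 and -0.10. Thrsp had 0.0229 (library size), 0.00054 (DESeq2 with lane) and 0.0309 (lane), and Pmvk -0.0248 (voom). Leaving out 1 library gave ranges of -0.19 to 0.13 for Acly, -0.24 to 0.32 for Acss2, -0.41 to 0.0648 for Fasn, -0.20 to 0.0332 for Gpam, -0.16 to 0.30 for Me1, -0.62 to 0.17 for Pck1, -0.24 to 0.0829 for Pnpla3, -0.17 to 0.22 for Scd1 and -0.29 to 0.15 for Thrsp. The cause was not tested. No paired analysis was possible because the groups compared share no replicate numbers.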
